A study of Mus musculus with 12 samples.

Results

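Transcripts of lysosomal genes were followed in mouse bone marrow-derived macrophages that had met lipopolysaccharide (LPS, a component of the outer membrane of Gram-negative bacteria) once, again after a rest, or not at all. The set holds 67 of the 35521 gene names with a value on the array. It consists of 40 names that begin with Atp6v (subunits of the vacuolar proton pump) or are a cathepsin written as Cts and 1 letter, and 27 listed genes for other lysosomal enzymes, membrane proteins and the transcription factors Tfeb and Tfe3. The array carries these last 2 as Tcfeb and Tcfe3, and they were matched by RefSeq accession. In at least 1 group, 58 of the 67 genes had a signal well above background on each of the 3 arrays, and these were tested among 20481 genes. The other 9 were not (Atp6v0a4, Atp6v1b1, Atp6v1c2, Atp6v1g3, Ctse, Ctsj, Ctsm, Ctsq and Ctsr).

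The lysosome is an acidic compartment in which macrophages degrade what they take up and what autophagy delivers. The vacuolar ATPase pumps protons into it: its membrane sector, V0, forms the proton path, and its peripheral sector, V1, hydrolyses ATP. Cathepsins are lysosomal proteases, most of them cysteine proteases, and they cut proteins for antigen presentation as well as for turnover. TFEB, TFE3, MITF and TFEC form the MiT/TFE family of transcription factors, and TFEB and TFE3 bind the E-box motif CACGTG in promoters of many lysosomal genes. When nutrients are plentiful, the kinase mTORC1 at the lysosomal surface keeps TFEB in the cytoplasm by phosphorylation, so the amount of its mRNA is only 1 of several levels of control.

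The study asked how macrophages respond to LPS after they have been made tolerant and then left to recover. Marrow of female C57BL/6 mice aged 6 to 8 weeks was grown for 7 days in medium conditioned by L929 fibroblasts, and each group has 3 arrays from 3 independent experiments. Acute cells had LPS for 4 h. Tolerant cells had a first LPS exposure of 8 h, then 16 h of rest and a second exposure of 4 h. In recovered cells the rest between the same 2 exposures was longer, 88 h by the sample descriptions and 2 to 4 days by the treatment protocol. Untreated cells had no LPS, and since none cultured for as long as the recovered cells were analysed here, rest and culture time cannot be told apart. No strain other than C57BL/6 and no genetic change is named in the labels. Whether each experiment used a separate animal is not stated.

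Levels are log2 spot intensities scaled to the 75th percentile of each array. Levels of different probes cannot be set against each other, so only levels of the same gene are compared. Between 47.7% and 54.9% of spots were well above background on an array, 0 spots were saturated, and arrays of a group correlated at r from 0.980 to 0.994 across genes. All 7 macrophage markers were well above background in every group. Their summed linear intensity was 527358 to 603597 in acute, 538986 to 643491 in tolerant, 615183 to 763023 in recovered and 541113 to 573793 in untreated cells. Stromal markers summed to 213 to 463 in acute, 438 to 494 in tolerant and 406 to 662 in recovered cells, against 85.4 to 142 in untreated cells. Erythroid and platelet markers summed to 8270 to 16601 in acute, 11630 to 25332 in tolerant and 35348 to 51249 in recovered cells, against 6211 to 13428 in untreated cells. Neutrophil markers summed to 4710 to 6476 in acute, 4514 to 7655 in tolerant and 6667 to 7327 in recovered cells, against 4352 to 6597 in untreated cells. Of 3 neutrophil markers tested, 1, 2 and 2 were called higher in acute, tolerant and recovered cells. Of all genes tested, 14.3%, 11.2% and 18.5% were called higher in those groups. Mast cell and basophil markers summed to 43.0 to 70.6 in acute, 20.9 to 32.3 in tolerant and 30.3 to 37.4 in recovered cells, against 76.0 to 129 in untreated cells. The summed dendritic cell markers overlapped between all groups, but of 3 tested 1, 2 and 1 were called higher in acute, tolerant and recovered cells, beside those same shares of all genes. The part of such cells in the results was not tested. In bulk RNA, fewer cells of a type and less RNA per cell cannot be told apart.

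Most lysosomal transcripts changed little. A gene was called when its adjusted p in limma's moderated test, Benjamini-Hochberg adjusted over the 20481 genes, was under 0.05. Of the 58 genes, 36 were called in none of the 6 comparisons, and 51 stayed under a difference of 1 on the log2 scale in every comparison (87.9%, beside 69.7% of all genes tested). The 22 called genes were 37.9% of the set, beside 49.0% of all genes called in at least 1 comparison. With the replicate number as a block, which pairs same-numbered arrays, 21 of the 58 genes were called in none. The share of all genes called rose with that block in each comparison too, for example from 35.3% to 52.6% in recovered against untreated cells. How many of all genes were called in none with the block was not counted, so the 21 has no share beside it. The 7 genes that reached a difference of 1 were Tfeb, Ctsk, Atp6v0d2, Ctsc, Ctsw, Ctsh and Atp6v0a1. Without the block, only Ctsc, Atp6v0a1 and Atp6v0a2 were called in all 3 LPS groups against untreated cells.

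**Figure D1:**
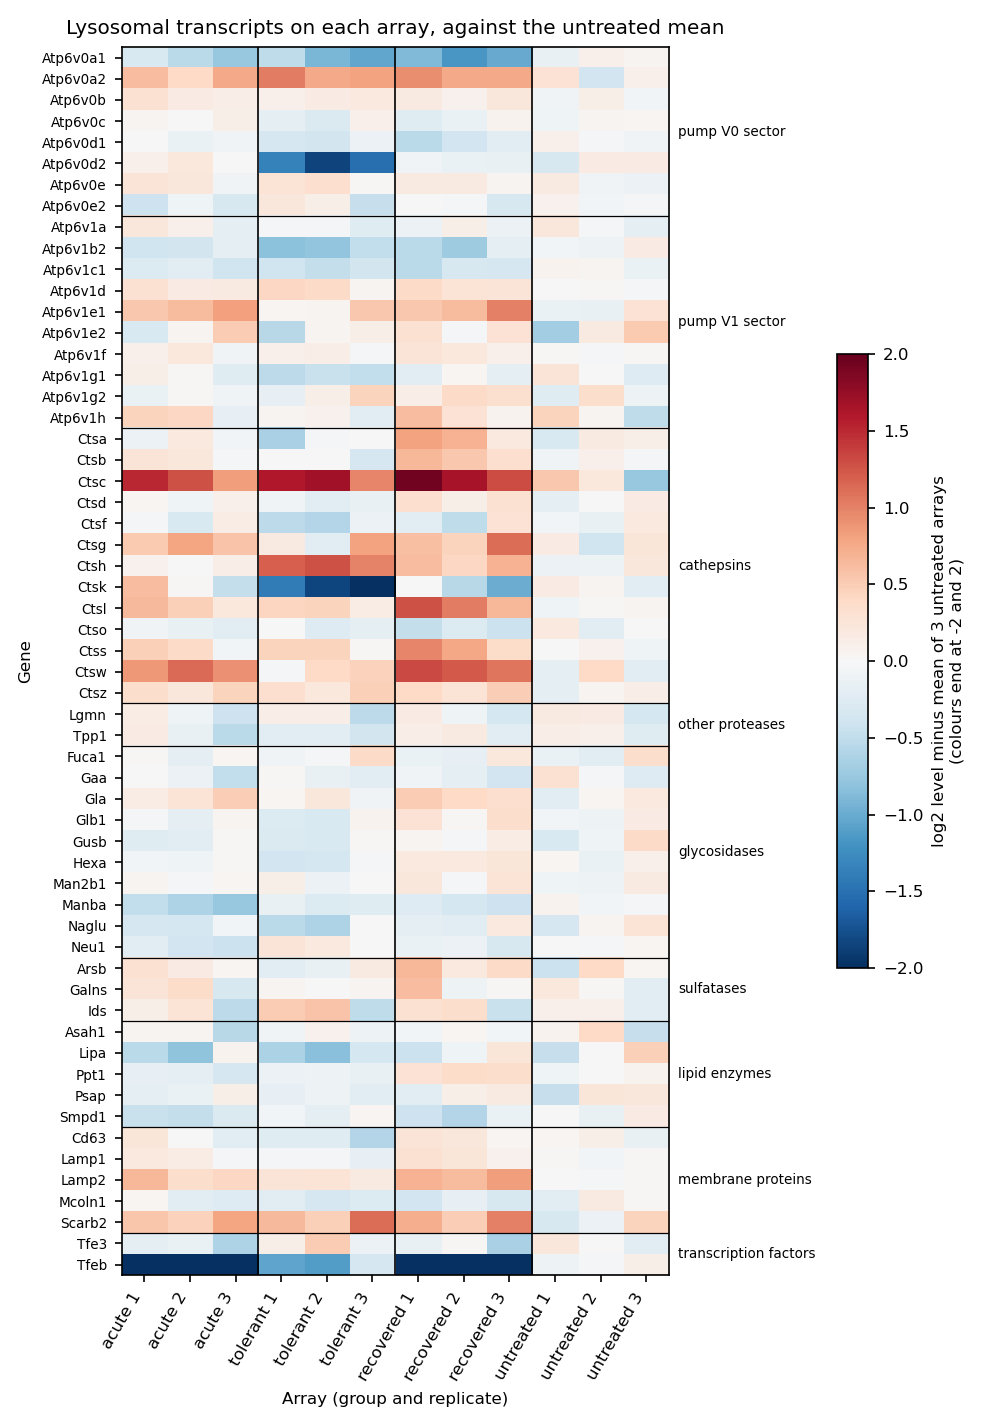
Log2 level of each of the 58 lysosomal genes on each of the 12 arrays minus the mean of the 3 untreated arrays, with genes in rows by role and arrays in columns by group. Most rows are pale, Tfeb is dark blue in acute and recovered cells, Ctsk and Atp6v0d2 are blue in tolerant cells, and Ctsc is red in all 3 LPS groups.

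In acute against untreated cells, 5 lysosomal genes were higher (Ctsc, Ctsw, Atp6v1e1, Atp6v0a2 and Lamp2) and 3 were lower (Tfeb, Manba and Atp6v0a1). The 8 calls were 13.8% of the set, while 29.2% of all genes were called, 14.3% higher and 14.9% lower. The median log2 difference was 0.01 over the set and 0.02 over all genes. The split depended on the scaling: 3 were higher and 9 lower after quantile normalization, and 4 were higher and 24 lower in the authors' deposited values, in which the median of all genes stood at -0.09. Those settings called 33% and 45.4% of all genes, and 41.5% and 37.3% of these calls were higher. With the replicate block, 16 were called, 9 higher and 7 lower, beside 43.5% of all genes. Leaving out untreated replicate 2 or any 1 of acute replicates 1, 2 and 3 left 5 calls, beside 24.5% to 26.4% of all genes.

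In tolerant against untreated cells, 4 genes were higher (Ctsc, Ctsh, Atp6v0a2 and Scarb2) and 5 were lower (Ctsk, Atp6v0d2, Atp6v0a1, Atp6v1b2 and Atp6v1c1). These 9 calls were 15.5% of the set, beside 19.9% of all genes (11.2% higher and 8.6% lower), and the median difference was -0.08 over the set and -0.02 over all genes. Quantile normalization gave 3 higher and 10 lower, and the authors' deposited values 5 higher and 16 lower. Those settings called 22.4% and 34.6% of all genes. The replicate block gave 17 calls, 6 higher and 11 lower, beside 37.5% of all genes.

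Recovered against untreated cells had the most calls, 11 higher and 4 lower. Of the 11, 6 were cathepsins (Ctsc, Ctsw, Ctsl, Ctss, Ctsh and Ctsb), and the others were Atp6v0a2, Scarb2, Atp6v1e1, Lamp2 and Ppt1. Tfeb, Atp6v0a1, Atp6v1b2 and Atp6v1c1 were lower. The 15 calls were 25.9% of the set, beside 35.3% of all genes (18.5% higher and 16.9% lower), and the median difference was 0.15 over the set and 0.06 over all genes. Quantile normalization gave 6 higher and 13 lower, and the authors' deposited values 8 higher and 19 lower. Those settings called 40.7% and 54.3% of all genes. The replicate block gave 25 calls, 16 higher and 9 lower, beside 52.6% of all genes. Without recovered replicate 1 there were 9 calls, beside 28.6% of all genes.

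Between the LPS groups, tolerant against acute cells had 4 genes higher (Tfeb, Ctsh, Neu1 and Manba) and 3 lower (Ctsk, Atp6v0d2 and Ctsw), 12.1% of the set beside 22.7% of all genes (12% higher and 10.6% lower). The replicate block gave 14 calls, 6 higher and 8 lower, beside 44.5% of all genes. The authors' deposited values gave 8 higher and 3 lower, beside 37.5% of all genes called. Recovered against tolerant cells had 10 higher (Atp6v0d2, Ctsk, Ctsw, Ctsa, Ctsl, Ctsb, Cd63, Lamp2, Hexa and Ppt1) and 2 lower (Tfeb and Ctsh), 20.7% beside 20.6% of all genes (11% higher and 9.57% lower). In that comparison the replicate block gave 17 higher and 5 lower, quantile normalization 5 higher and 3 lower, and the authors' deposited values 8 higher and 5 lower. Those settings called 45.1%, 22.8% and 36.1% of all genes. Recovered against acute cells had 1 call, Ppt1, higher, which is 1.72% of the set beside 2.05% of all genes (1.47% higher and 0.581% lower), and 6 calls with the replicate block. Leaving out 1 array cut the calls of tolerant against acute cells to 4 (acute replicate 2 or tolerant replicate 1 or 2), and those of recovered against tolerant cells to 4 (recovered replicate 1), 5 (tolerant replicate 1 or 2) or 6 (recovered replicate 2). For recovered against acute cells 0 calls were left without untreated replicate 2, tolerant replicate 1 or 2, or any 1 array of the acute or recovered group. With the same arrays left out, 15.3% to 17.7% of all genes were called in tolerant against acute cells. In recovered against tolerant cells 12.6% to 16.6% of all genes were called, and in recovered against acute cells 0.122% to 2.16%.

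**Figure D2:**
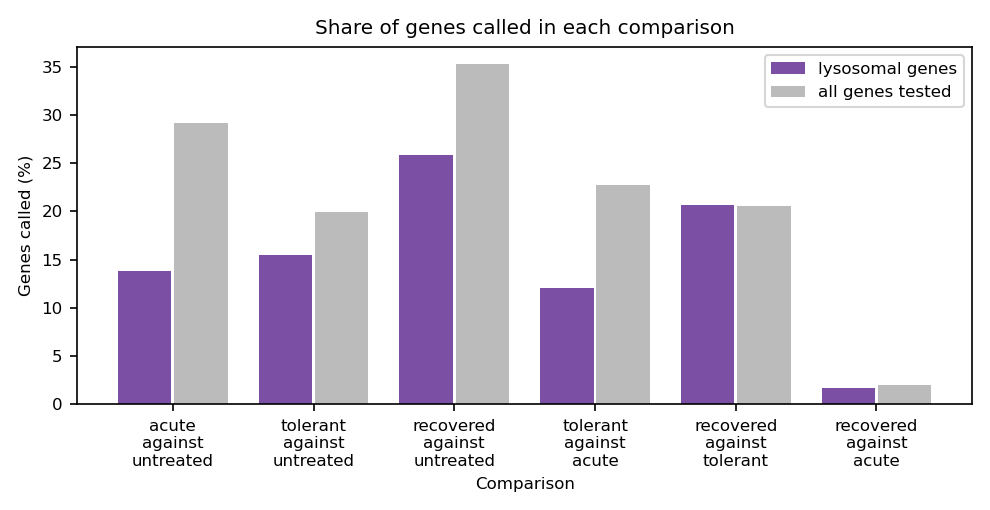
Percentage of genes called at an adjusted p under 0.05 in each of the 6 comparisons, for the 58 lysosomal genes (purple) and all 20481 genes tested (grey). The lysosomal bar is the lower one in 5 comparisons and level with the grey one in recovered against tolerant cells (20.7% and 20.6%).

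The transcription factor Tfeb showed the widest change of the set. Its log2 level was 5.89, 5.78 and 6.15 on the acute arrays, 8.49, 8.43 and 9.21 on the tolerant arrays, 6.15, 7.05 and 7.17 on the recovered arrays, and 9.44, 9.53 and 9.66 on the untreated arrays. Each LPS group lay below all untreated arrays, and the tolerant arrays lay between the untreated and the other LPS arrays without overlap. Acute cells were 12.2-fold below untreated cells (log2 difference -3.60, SE 0.28, adjusted p = 2.28e-06, limma). The size of the fall depended on the processing: over the alternatives and left-out arrays the acute difference ran from -3.71 to -2.64. Recovered cells were 6.75-fold below untreated cells (-2.75, SE 0.28, adjusted p = 1.85e-05, limma). The tolerant difference of -0.83 was not called (adjusted p = 0.0579, limma), but was with the replicate block (adjusted p = 0.0101). Tolerant cells stood 6.83-fold above acute cells (log2 difference 2.77, from 1.86 to 2.91 over those settings, adjusted p = 9.64e-05, limma), and recovered cells were lower than tolerant cells (log2 difference -1.92, adjusted p = 0.00101, limma). Recovered and acute cells differed by 0.85 (adjusted p = 0.172, limma, and 0.0286 with the replicate block).

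A single probe reads Tfeb on this array, at chr17:47929089-47929148 of mm9 on the plus strand, while RefSeq lists 3 curated Tfeb transcripts, so a change of isoform and a change of total Tfeb mRNA cannot be told apart. The deposited scanner files give the sequence of the probe, shown with those of 3 other genes whose levels in tolerant cells stood apart, Ctsk (chr3:95313165-95313224, plus strand), Atp6v0d2 (chr4:19805367-19805426, minus strand) and Ctsh (chr9:89970828-89970887, plus strand). Each is 60 bases long, written 5′ to 3′ with no part in capitals. Whether the probes lie in coding or untranslated exons was not analysed here.
Tfeb: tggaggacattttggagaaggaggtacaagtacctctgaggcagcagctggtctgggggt
Ctsk: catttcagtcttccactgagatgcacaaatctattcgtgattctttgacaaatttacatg
Atp6v0d2: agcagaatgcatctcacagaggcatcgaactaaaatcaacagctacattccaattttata
Ctsh: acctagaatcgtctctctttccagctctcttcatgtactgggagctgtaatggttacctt

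Tfe3, the relative of Tfeb that shares many of its target genes, was called in no comparison. Its level was 13.47, 13.53 and 13.05 in acute, 13.78, 14.18 and 13.55 in tolerant, 13.52, 13.69 and 13.02 in recovered and 13.90, 13.66 and 13.45 in untreated cells. All pairs of groups overlapped except tolerant and acute cells. The acute minus untreated difference was -0.31 with a 95% interval from -0.82 to 0.19. With the replicate block Tfe3 was higher in tolerant than acute cells (difference 0.48, adjusted p = 0.0127) and lower in recovered than tolerant cells (-0.43, adjusted p = 0.0229). A second, dimmer probe of Tfe3 was called lower in recovered than tolerant cells without the block (-0.40, adjusted p = 0.0496 in a separate limma fit over probes).

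The other members of the factor family, taken from a list of 21 genes for the control of TFEB at the lysosome, moved the other way. Tfec was at 10.53, 10.46 and 10.15 in acute, 9.96, 10.20 and 8.95 in tolerant, 10.65, 10.49 and 10.43 in recovered and 8.07, 7.82 and 7.08 in untreated cells, with every LPS array above every untreated array. The Tfec differences from untreated cells were 2.72, 2.04 and 2.86 in acute, tolerant and recovered cells (adjusted p = 6.45e-05, 0.000993 and 4e-05, limma). Mitf was at 14.78, 14.79 and 14.39 in acute, 13.96, 14.25 and 13.61 in tolerant, 14.92, 15.13 and 14.51 in recovered and 12.91, 12.59 and 12.58 in untreated cells. It rose by 1.96, 1.25 and 2.16 in acute, tolerant and recovered cells (adjusted p = 3.84e-05, 0.00181 and 1.71e-05, limma). Flcn encodes folliculin, which acts with FNIP partners on the Rag GTPases so that mTORC1 can phosphorylate TFEB. Flcn was at 10.06, 10.36 and 9.72 in acute, 11.37, 11.51 and 11.31 in tolerant, 9.84, 10.31 and 10.04 in recovered and 12.38, 12.56 and 11.96 in untreated cells, which is the same order of groups as Tfeb in that tolerant cells lay between untreated cells and the other 2. The differences of Flcn were -2.25, -0.90 and -2.23 (adjusted p = 1.08e-05, 0.0106 and 1.08e-05, limma), and its partner Fnip2 was lower in all 3 LPS groups too (-1.58, -1.62 and -2.20). Of the 20 genes of the list that were tested, 2 were higher and 2 lower in acute, 2 and 5 in tolerant, and 2 and 3 in recovered cells against untreated cells. These are 20%, 35% and 25% of the list, beside 29.2%, 19.9% and 35.3% of all genes.

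**Figure D3:**
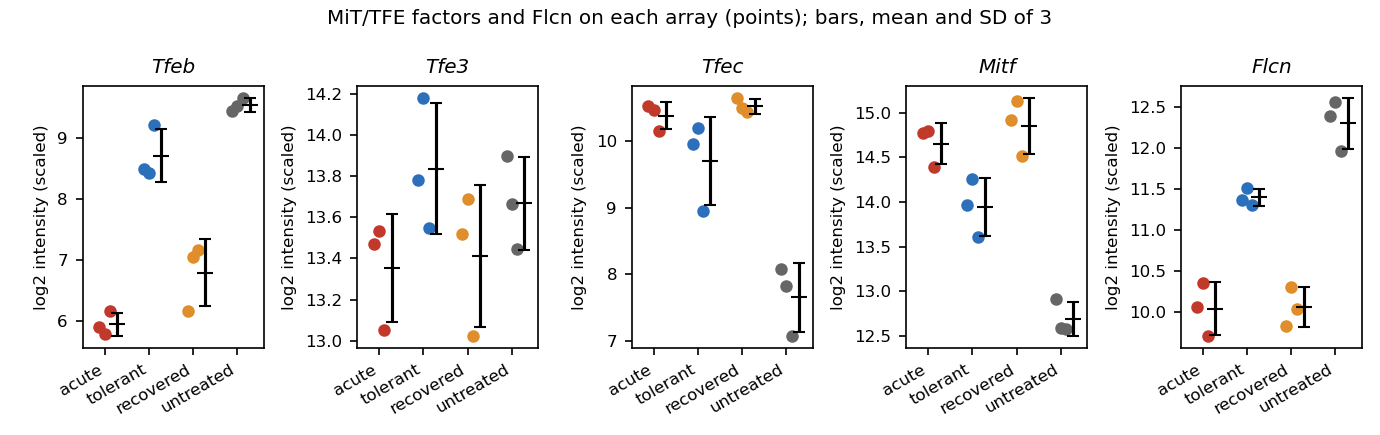
Log2 scaled intensity of Tfeb, Tfe3, Tfec, Mitf and Flcn on each array (points) by group, with the mean and SD of 3 arrays beside them. Tfeb and Flcn are lowest in acute and recovered cells, Tfec and Mitf are lowest in untreated cells, and the groups of Tfe3 overlap except tolerant and acute cells.

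The E-box was looked for in the 250 bases before to 50 bases after the transcription start of each gene, in the promoter windows of RefSeq (GRCm38.p6). Windows were found for 47 of the 58 genes, and both strands read the same because CACGTG is its own reverse complement. The motif was in the window of 15 of the 47 genes (31.9%), beside 11.1% of 9622 other genes tested here that have a window and 8.09% of all 27025 genes in the table. The longer GTCACGTG, read on both strands, was in 10 (21.3%), beside 4.36% of those 9622 genes and 2.55% of all genes in the table. Of the 15 genes with CACGTG, 13 were called in no comparison and 2 (Ctsa and Ctsl) in at least 1, out of 32 and 15 genes with a window. A match is a description of these letters and not a binding site. The windows of Tfeb and Ctsk held no CACGTG, and Atp6v0d2 and Ctsh had no window in the table.

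The 60 bases before the transcription start are shown for the 6 genes in which this stretch holds GTCACGTG on either strand, with each CACGTG in capitals. They are written 5′ to 3′ on the strand of the gene. None of the 6 but Ctsa was called in any comparison. The stretches lie at chr4:117887330-117887389 (Atp6v0b, minus strand), chr2:164833713-164833772 (Ctsa, plus), chr9:114401018-114401077 (Glb1, plus), chr8:13159101-13159160 (Lamp1, plus), chr12:102439093-102439152 (Lgmn, minus) and chr8:3500459-3500518 (Mcoln1, plus) of GRCm38.p6.
Atp6v0b: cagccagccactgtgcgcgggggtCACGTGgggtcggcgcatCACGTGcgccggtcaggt
Ctsa: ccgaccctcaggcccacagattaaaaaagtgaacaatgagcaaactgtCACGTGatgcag
Glb1: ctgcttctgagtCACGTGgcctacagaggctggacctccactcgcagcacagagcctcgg
Lamp1: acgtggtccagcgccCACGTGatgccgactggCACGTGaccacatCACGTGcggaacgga
Lgmn: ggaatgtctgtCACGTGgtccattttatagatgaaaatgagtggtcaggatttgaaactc
Mcoln1: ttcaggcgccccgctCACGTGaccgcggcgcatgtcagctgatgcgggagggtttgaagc

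Of the 13 cathepsins tested, 8 were called in at least 1 comparison, beside 49.0% of all genes. Ctsk encodes cathepsin K, a collagen-degrading protease best known from osteoclasts. Its log2 level was 12.28, 11.69 and 11.19 in acute, 10.27, 9.83 and 9.19 in tolerant, 11.68, 11.11 and 10.67 in recovered and 11.83, 11.73 and 11.45 in untreated cells. All tolerant arrays lay below all other arrays. Tolerant cells were 3.74-fold below untreated cells (log2 difference -1.90, SE 0.35, adjusted p = 0.00244, limma) and 3.88-fold below acute cells (-1.96, adjusted p = 0.00234, limma). Recovered cells stood 1.39 above tolerant cells (adjusted p = 0.0166, limma), a call lost without tolerant replicate 3 or recovered replicate 1 (highest adjusted p = 0.0699). The difference of recovered from untreated cells was -0.51, which was called with the replicate block only (adjusted p = 0.0141, and 0.281 without it). Acute and untreated cells differed by 0.05 with a 95% interval from -0.71 to 0.81.

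Ctsh, an aminopeptidase of the cathepsin family, was highest in tolerant cells. It was at 15.49, 15.40 and 15.53 in acute, 16.59, 16.67 and 16.39 in tolerant, 16.03, 15.81 and 16.11 in recovered and 15.29, 15.30 and 15.63 in untreated cells. The tolerant arrays lay above all others, the recovered arrays came next, and acute and untreated arrays overlapped. The difference from untreated cells was 1.15 in tolerant cells (SE 0.15, adjusted p = 0.000268, limma) and 0.58 in recovered cells (adjusted p = 0.0104, limma). Tolerant cells stood 1.08 above acute cells (adjusted p = 0.000556, limma) and recovered cells lower than tolerant cells (difference -0.57, adjusted p = 0.0201, limma), the second of which was lost without tolerant replicate 1 or 2 or recovered replicate 1 or 2. The recovered call against untreated cells was lost after quantile normalization and in the authors' deposited values (highest adjusted p = 0.145).

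Ctsc encodes dipeptidyl peptidase 1, which activates granule serine proteases. It was at 13.88, 13.65 and 13.21 in acute, 13.97, 14.05 and 13.35 in tolerant, 14.30, 14.02 and 13.67 in recovered and 12.91, 12.59 and 11.62 in untreated cells. No untreated array reached the lowest LPS array. The differences from untreated cells were 1.21, 1.42 and 1.62 in acute, tolerant and recovered cells (adjusted p = 0.017, 0.0108 and 0.00267, limma), and the 3 LPS groups differed from each other by 0.21 to 0.42 with no call. A second, dimmer probe of Ctsc gave 2.61, 2.62 and 2.76 for the same comparisons. The acute call was lost without untreated replicate 3 or acute replicate 1 or 2 (highest adjusted p = 0.063).

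**Figure D4:**
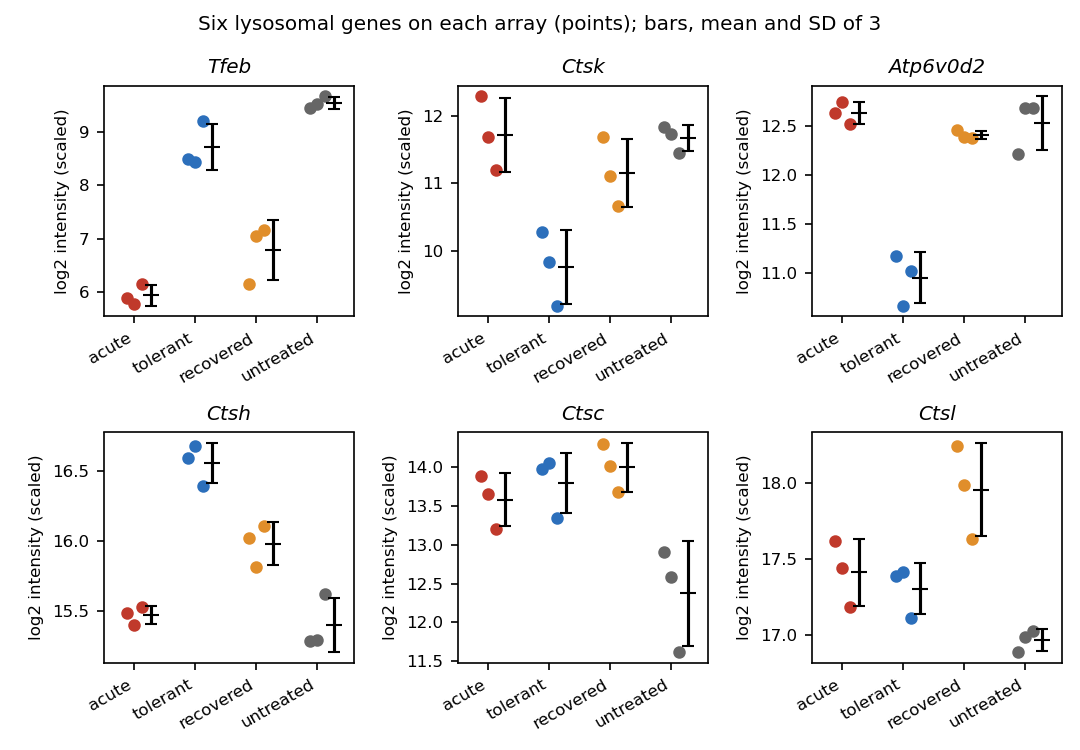
Log2 scaled intensity of Tfeb, Ctsk, Atp6v0d2, Ctsh, Ctsc and Ctsl on each array (points) by group, with the mean and SD of 3 arrays beside them. Ctsk and Atp6v0d2 are lowest and Ctsh is highest in tolerant cells, Ctsc is lowest in untreated cells, and Ctsl is highest in recovered cells.

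Ctsl, Ctss and Ctsb encode abundant cysteine cathepsins of macrophages, of which cathepsin S is known for cutting the invariant chain of MHC class II. Ctsl was at 17.62, 17.44 and 17.18 in acute, 17.39, 17.41 and 17.11 in tolerant, 18.25, 17.99 and 17.63 in recovered and 16.89, 16.98 and 17.03 in untreated cells. Recovered cells were above all other groups, although the highest acute array nearly met the lowest recovered one, and were 1.99-fold above untreated cells (log2 difference 0.99, SE 0.18, adjusted p = 0.00134, limma). They stood 0.65 above tolerant cells (adjusted p = 0.0275, limma), a call lost after quantile normalization, without the filter on dim probes and without recovered replicate 1 or 2 or any 1 tolerant array (highest adjusted p = 0.11). Ctss was at 18.07, 17.97 and 17.53 in acute, 18.03, 18.04 and 17.61 in tolerant, 18.57, 18.36 and 17.95 in recovered and 17.59, 17.67 and 17.50 in untreated cells. Only recovered cells were called against untreated cells for Ctss (difference 0.71, adjusted p = 0.0189, limma), a call lost without untreated replicate 3 or recovered replicate 1 or 2 (highest adjusted p = 0.0818). Ctsb was at 18.23, 18.21 and 17.96 in acute, 17.98, 17.99 and 17.63 in tolerant, 18.64, 18.51 and 18.31 in recovered and 17.91, 18.07 and 17.95 in untreated cells. Recovered cells stood 0.51 above untreated and 0.62 above tolerant cells (adjusted p = 0.0228 and 0.0161, limma), and the first of these was lost after quantile normalization, in the authors' deposited values (highest adjusted p = 0.367) and without untreated replicate 1 or 3 or recovered replicate 1 or 2. The second was lost in the authors' deposited values and without tolerant replicate 3 or recovered replicate 1 (highest adjusted p = 0.113).

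Ctsw is known as a cathepsin of cytotoxic lymphocytes. It was at 6.38, 6.65 and 6.43 in acute, 5.49, 5.91 and 5.97 in tolerant, 6.83, 6.74 and 6.59 in recovered and 5.34, 5.92 and 5.29 in untreated cells. Acute and recovered arrays lay above all tolerant and untreated arrays. The differences from untreated cells were 0.97 in acute and 1.20 in recovered cells (adjusted p = 0.00308 and 0.000645, limma), and tolerant cells were lower than acute cells (difference -0.70, adjusted p = 0.0267, limma), a call lost without acute replicate 2 or tolerant replicate 1 or 2. Without the filter on dim probes this last call was lost too. Lymphocyte markers, of which 3 of 7 were well above background on all 3 arrays of each group, summed to 5881 to 6214 in acute, 4942 to 5887 in tolerant, 5599 to 6541 in recovered and 6077 to 6776 in untreated cells, with overlap between recovered and untreated cells. Their part in the values of Ctsw was not tested.

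Ctsa, which encodes the protective carboxypeptidase of beta-galactosidase and neuraminidase, was called in 1 comparison. It was at 15.80, 16.11 and 15.86 in acute, 15.27, 15.87 and 15.92 in tolerant, 16.72, 16.61 and 16.10 in recovered and 15.62, 16.10 and 16.03 in untreated cells. Recovered cells stood 0.79 above tolerant cells (adjusted p = 0.0321, limma), a call lost without tolerant replicate 1 or 2 or recovered replicate 1 or 2 (highest adjusted p = 0.121). It was also lost after quantile normalization, in the authors' deposited values, without the filter on dim probes and with the mean of all probes (highest adjusted p = 0.126, limma). A second, dimmer probe of Ctsa gave 0.60 for this comparison and was not called (adjusted p = 0.283 in the limma fit over probes). Against untreated cells the 2 probes disagreed: the dimmer one gave -0.64 in recovered cells, where the brighter one gave 0.56, and was called lower in tolerant cells (-1.24, adjusted p = 0.0422, limma), where the brighter one gave -0.23.

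The aspartic protease gene Ctsd was called in no comparison. It was at 18.47, 18.36 and 18.54 in acute, 18.38, 18.21 and 18.29 in tolerant, 18.78, 18.56 and 18.75 in recovered and 18.26, 18.45 and 18.60 in untreated cells. Recovered arrays lay above all tolerant arrays, a difference of 0.40 that only the replicate block called (adjusted p = 0.0159). The remaining cathepsins, Ctsf, Ctsg, Ctso and Ctsz, were not called either, with differences from untreated cells between -0.41 and 0.72. With the replicate block Ctsz was higher in all 3 LPS groups (0.34, 0.34 and 0.38). Over the 13 cathepsins, recovered against untreated cells had 6 higher and 0 lower with a median difference of 0.56. These 6 calls were 46.2% of the cathepsins, beside 35.3% of all genes. With the replicate block 9 were higher and 2 lower, beside 52.6% of all genes. After quantile normalization 4 were higher and 0 lower, but in the authors' deposited values 4 were higher and 2 lower. Those settings called 40.7% and 54.3% of all genes. In acute cells 2 were higher and 0 lower (15.4%, beside 29.2% of all genes), and in tolerant cells 2 were higher and 1 lower (23.1%, beside 19.9%).

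Of the other 2 proteases, Lgmn encodes legumain, which cuts after asparagine and processes cathepsins. It was at 17.05, 16.81 and 16.48 in acute, 17.03, 17.03 and 16.38 in tolerant, 17.06, 16.81 and 16.55 in recovered and 17.08, 17.06 and 16.55 in untreated cells. Its groups overlapped throughout, and the recovered minus untreated difference was -0.09 with a 95% interval from -0.62 to 0.44. Tpp1, a tripeptidyl peptidase, was called in no comparison.

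In the V0 sector of the proton pump, 3 of 8 subunit genes were called in at least 1 comparison, beside 49.0% of all genes. Atp6v0d2 encodes the form of the d subunit that osteoclasts and macrophages use beside the widespread Atp6v0d1. It was at 12.63, 12.74 and 12.52 in acute, 11.17, 10.67 and 11.02 in tolerant, 12.46, 12.39 and 12.37 in recovered and 12.21, 12.68 and 12.68 in untreated cells. All tolerant arrays lay below all other arrays, by more than the whole spread of the other 9. Tolerant cells were 2.97-fold below untreated cells (log2 difference -1.57, SE 0.17, adjusted p = 9.01e-05, limma) and 3.19-fold below acute cells (-1.68, adjusted p = 0.000114, limma), and recovered cells were 2.73-fold above tolerant cells (1.45, adjusted p = 0.000362, limma). A second probe gave -1.97, -1.87 and 1.74 for these comparisons. Recovered and untreated cells differed by -0.12 with a 95% interval from -0.50 to 0.26.

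Its paralog Atp6v0d1 was at 13.72, 13.59 and 13.65 in acute, 13.39, 13.36 and 13.61 in tolerant, 13.18, 13.35 and 13.52 in recovered and 13.83, 13.70 and 13.66 in untreated cells. No comparison of Atp6v0d1 was called, and recovered against untreated cells was with the replicate block only (-0.38, adjusted p = 0.0217). The tolerant minus untreated difference of Atp6v0d1 was -0.27 with a 95% interval from -0.57 to 0.03, against an interval from -1.96 to -1.19 for Atp6v0d2.

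Ctsk and Atp6v0d2 are both known from osteoclasts, and markers of that cell type were set beside them. Of 7 osteoclast markers, 6 were well above background on every array and 1, Calcr, the calcitonin receptor gene, was on none. Their summed linear intensity was 54345 to 75095 in tolerant cells, 32817 to 61299 in acute cells, 14846 to 26845 in recovered cells and 31560 to 57386 in untreated cells, a sum in which the bright probe of Acp5 weighs most. In tolerant against untreated cells 0 of the 6 were called higher and 2 lower, with a median difference of -0.57. These 2 are 33.3% of the 6, beside 19.9% of all genes. In acute cells 0 were higher and 1 lower (16.7%, beside 29.2% of all genes, median -0.05). In recovered cells, where Ctsk and Atp6v0d2 were not called, 1 was higher and 2 lower (50%, beside 35.3% of all genes, median -1.18). Itgb3, the integrin beta 3 chain, was at 8.80, 7.88 and 7.43 in tolerant cells and 11.15, 11.83 and 11.43 in untreated cells (difference -3.43, adjusted p = 2.05e-05, limma). Nfatc1 was lower in tolerant cells (-1.24, adjusted p = 0.0031, limma) and also in acute and recovered cells (-1.84 and -2.03), and the other 4 were not called in tolerant against untreated cells (Acp5 0.78, Ocstamp 0.65, Dcstamp -1.05 and Oscar -0.09). The part of such cells in the 2 results was not tested.

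The a subunits of V0, which anchor the pump to its compartment, moved in opposite directions. Atp6v0a1 was at 14.38, 14.15 and 13.93 in acute, 14.18, 13.78 and 13.64 in tolerant, 13.80, 13.52 and 13.68 in recovered and 14.53, 14.79 and 14.73 in untreated cells. Each LPS group lay below all untreated arrays, with differences of -0.53, -0.82 and -1.02 in acute, tolerant and recovered cells (adjusted p = 0.0435, 0.00711 and 0.000955, limma), of which the tolerant call was lost without the second scan day (adjusted p = 0.0517). A second, dimmer probe of Atp6v0a1 gave -0.39, -0.84 and -0.65 with no call. Atp6v0a2 was at 9.60, 9.38 and 9.74 in acute, 10.002, 9.75 and 9.78 in tolerant, 9.92, 9.75 and 9.74 in recovered and 9.28, 8.59 and 9.08 in untreated cells. Each LPS group lay above all untreated arrays, with differences of 0.59, 0.86 and 0.82 (adjusted p = 0.0329, 0.0067 and 0.00506, limma). Both acute calls were fragile. That of Atp6v0a1 was lost without any 1 of 8 arrays (untreated 2 or 3, acute 2 or 3, tolerant 2, recovered 1, 2 or 3; highest adjusted p = 0.144), and that of Atp6v0a2 without untreated replicate 2 or acute replicate 1 or 3 (highest adjusted p = 0.126). The other V0 genes, Atp6v0b, Atp6v0c, Atp6v0e and Atp6v0e2, were called in no comparison.

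Tcirg1, which encodes the a3 subunit of lysosomes and osteoclasts but has no Atp6v name on the array, was taken from a list of 12 pump partners. It was called higher in recovered cells (0.88) and, with the replicate block only, in acute and tolerant cells (0.71 and 0.56). Among the partners, Ncoa7, whose TLDc domain protein binds the pump, was at 10.58, 10.33 and 10.59 in acute, 9.03, 8.71 and 9.04 in tolerant, 10.13, 9.90 and 10.27 in recovered and 7.70, 7.43 and 8.07 in untreated cells. The 4 groups of Ncoa7 did not overlap, and the differences from untreated cells were 2.77, 1.19 and 2.36 (adjusted p = 8.46e-07, 0.00103 and 2.87e-06, limma). The assembly factors of V0 in the endoplasmic reticulum split, with Tmem199 lower in all 3 LPS groups (-1.11, -0.45 and -1.0) and Vma21 higher in acute and recovered cells (0.72 in each). Of the 12 partners, 2 were higher and 3 lower in acute, 1 and 1 in tolerant, and 3 and 3 in recovered cells against untreated cells, which is 41.7%, 16.7% and 50%, beside 29.2%, 19.9% and 35.3% of all genes.

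In the V1 sector, 3 of 10 subunit genes were called in at least 1 comparison, beside 49.0% of all genes. Atp6v1e1 encodes the common form of a stalk subunit. It was at 14.73, 14.83 and 15.02 in acute, 14.23, 14.26 and 14.74 in tolerant, 14.74, 14.83 and 15.21 in recovered and 14.06, 14.05 and 14.48 in untreated cells. Acute and recovered arrays lay above all untreated arrays, with differences of 0.66 and 0.73 (adjusted p = 0.0251 and 0.0134, limma), and tolerant arrays overlapped the untreated ones. After quantile normalization neither of these 2 calls held, and the acute one was lost in the authors' deposited values too (highest adjusted p = 0.407 in acute and 0.234 in recovered cells, limma). The acute call was lost without untreated replicate 1 or 2 or acute replicate 2 or 3, and the recovered call without untreated replicate 2 or recovered replicate 3.

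Atp6v1b2 encodes a subunit of the ATP-hydrolysing head. It was at 11.45, 11.47 and 11.65 in acute, 11.02, 11.05 and 11.35 in tolerant, 11.30, 11.13 and 11.64 in recovered and 11.78, 11.74 and 12.001 in untreated cells. All LPS arrays lay below all untreated arrays, and the differences were -0.32, -0.70 and -0.48, of which the tolerant and recovered ones were called (adjusted p = 0.0118 and 0.042, limma) and the acute one with the replicate block only (adjusted p = 0.0237). The tolerant call was lost without tolerant replicate 1 or 2 (highest adjusted p = 0.051), and the recovered call without any 1 of 9 arrays (highest adjusted p = 0.15), all but acute 3, tolerant 3 and recovered 3. Atp6v1c1, a regulatory subunit gene, was at 12.83, 12.88 and 12.70 in acute, 12.71, 12.62 and 12.74 in tolerant, 12.56, 12.78 and 12.76 in recovered and 13.18, 13.16 and 12.98 in untreated cells. All its LPS arrays lay below all untreated arrays, by -0.30, -0.41 and -0.40 on average, with calls in tolerant and recovered cells (adjusted p = 0.0424 and 0.0304, limma). The tolerant call of Atp6v1c1 was lost without any 1 of 10 arrays (all but untreated 3 and acute 3, highest adjusted p = 0.135), and the recovered call without untreated replicate 1 or 2 or recovered replicate 1 or 3. Without the filter on dim probes the recovered call of Atp6v1b2 and the tolerant call of Atp6v1c1 were lost, the latter also with normexp background correction.

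Atp6v1h, the regulatory subunit H, was at 11.99, 11.96 and 11.38 in acute, 11.60, 11.63 and 11.32 in tolerant, 12.16, 11.83 and 11.61 in recovered and 11.99, 11.61 and 11.04 in untreated cells. Its groups overlapped, and no comparison was called. The catalytic subunit gene Atp6v1a and Atp6v1d, Atp6v1e2, Atp6v1f, Atp6v1g1 and Atp6v1g2 were called in no comparison either. With the replicate block Atp6v1g1 was lower in tolerant than untreated and acute cells (-0.48 and -0.45), and Atp6v1d was higher in recovered than untreated cells (0.30).

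**Figure D5:**
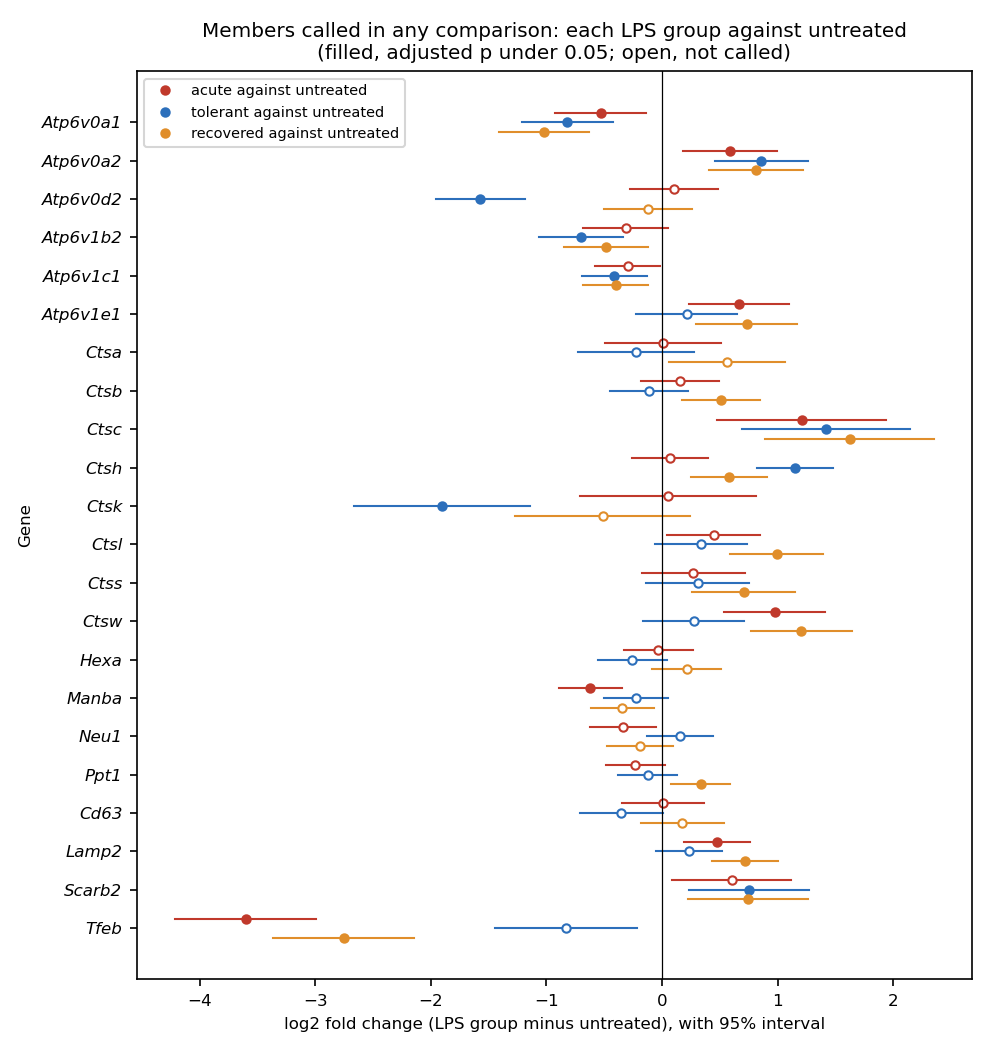
Log2 fold change of each LPS group against untreated cells, with its 95% interval, for the 22 lysosomal genes called in at least 1 of the 6 comparisons. Filled points are called at an adjusted p under 0.05. Tfeb in acute cells lies farthest left at -3.60, and the tolerant points of Ctsk and Atp6v0d2 lie apart from the acute and recovered points of the same genes.

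Among the lysosomal membrane proteins, Lamp1 and Lamp2 encode the heavily glycosylated proteins that line the membrane. Lamp1 was at 17.76, 17.70 and 17.53 in acute, 17.53, 17.54 and 17.40 in tolerant, 17.87, 17.80 and 17.65 in recovered and 17.58, 17.51 and 17.59 in untreated cells. It was called in no comparison, and recovered minus untreated cells differed by 0.21 with a 95% interval from -0.07 to 0.49. With the replicate block it was higher in recovered than tolerant cells (0.28, adjusted p = 0.0357). Lamp2 was at 14.50, 14.19 and 14.24 in acute, 14.09, 14.11 and 14.02 in tolerant, 14.53, 14.47 and 14.67 in recovered and 13.83, 13.81 and 13.87 in untreated cells. All LPS arrays of Lamp2 lay above all untreated arrays. The differences were 0.48, 0.24 and 0.72 in acute, tolerant and recovered cells, of which the acute and recovered ones were called (adjusted p = 0.0164 and 0.00119, limma), and the acute one was lost after quantile normalization, in the authors' deposited values (highest adjusted p = 0.544) and without acute replicate 1. Recovered cells stood 0.48 above tolerant cells (adjusted p = 0.0233, limma), a call lost after quantile normalization, without the second scan day and without recovered replicate 1 or 3 or any 1 tolerant array (highest adjusted p = 0.105). A second, dimmer probe of Lamp2 gave 0.56 in acute and 0.71 in recovered cells against untreated cells, with no call. With the mean of all probes, the Lamp2 calls of acute against untreated and recovered against tolerant cells were lost.

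Scarb2 encodes LIMP-2, which carries beta-glucocerebrosidase to the lysosome. It was at 11.66, 11.57 and 11.89 in acute, 11.76, 11.58 and 12.23 in tolerant, 11.84, 11.60 and 12.11 in recovered and 10.79, 10.98 and 11.55 in untreated cells. Each LPS group lay above all untreated arrays, with differences of 0.60, 0.75 and 0.74. The tolerant and recovered ones were called (adjusted p = 0.0444 and 0.0292, limma) and the acute one with the replicate block only (adjusted p = 0.00316). The tolerant call was lost without any 1 of 8 arrays (all but untreated 3, acute 3, tolerant 2 and recovered 3, highest adjusted p = 0.149), and the recovered call without untreated replicate 1 or 2 or recovered replicate 1 or 3. Both calls were lost after quantile normalization, and the tolerant one without the filter on dim probes too.

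Cd63, a tetraspanin of late endosomes, was at 17.38, 17.15 and 16.92 in acute, 16.90, 16.90 and 16.56 in tolerant, 17.40, 17.36 and 17.18 in recovered and 17.17, 17.26 and 16.99 in untreated cells. Its only call was recovered above tolerant cells (0.53, adjusted p = 0.041, limma), which was lost without any 1 of 8 arrays (highest adjusted p = 0.126). Those arrays were untreated 2, acute 2 and all 6 of the tolerant and recovered groups. Mcoln1 encodes the calcium channel through which lysosomes can activate calcineurin and TFEB. It was at 13.37, 13.10 and 13.07 in acute, 13.11, 12.98 and 13.04 in tolerant, 12.94, 13.16 and 13.01 in recovered and 13.12, 13.50 and 13.35 in untreated cells, and no comparison was called (recovered minus untreated -0.29, 95% interval from -0.61 to 0.03).

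Glycosidases trim the sugar chains of glycoproteins and glycolipids. Of 10 tested, 7 were called in no comparison, while 49.0% of all genes were called in at least 1. Manba, which encodes beta-mannosidase, was at 10.99, 10.85 and 10.72 in acute, 11.32, 11.20 and 11.23 in tolerant, 11.21, 11.13 and 11.06 in recovered and 11.55, 11.42 and 11.45 in untreated cells. It was lower in acute than untreated cells (-0.62, SE 0.12, adjusted p = 0.00282, limma), with each LPS group below all untreated arrays, and higher in tolerant than acute cells (0.39, adjusted p = 0.0427, limma). The second of these was lost without any 1 of 10 arrays (all but untreated 1 and acute 1; highest adjusted p = 0.13). Neu1, the sialidase gene, was at 14.54, 14.48 and 14.30 in tolerant cells and 14.09, 13.90 and 13.86 in acute cells, without overlap (0.49, adjusted p = 0.0188, limma). Recovered cells had 14.16, 14.17 and 13.98 and untreated cells 14.28, 14.27 and 14.32. The Neu1 call was lost without acute replicate 2 or 3 or tolerant replicate 1 or 2.

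Hexa, the alpha chain of beta-hexosaminidase, was at 15.79, 15.76 and 15.87 in acute, 15.46, 15.50 and 15.80 in tolerant, 16.05, 16.04 and 16.09 in recovered and 15.88, 15.70 and 15.95 in untreated cells. Recovered arrays lay above all others, but only the difference of 0.47 from tolerant cells was called (adjusted p = 0.0323, limma), and it was lost without tolerant replicate 1 or 2 or any 1 recovered array. This call was also lost with normexp background correction, after quantile normalization, in the authors' deposited values and without the filter on dim probes (highest adjusted p = 0.244, limma). Gusb, which encodes beta-glucuronidase, was at 15.00, 15.02 and 15.27 in acute, 14.97, 14.94 and 15.27 in tolerant, 15.30, 15.23 and 15.40 in recovered and 14.94, 15.16 and 15.64 in untreated cells, with overlap throughout and no call. Fuca1, Gaa, Gla, Glb1, Man2b1 and Naglu were called in no comparison. For Fuca1 a second, dimmer probe was lower in acute, tolerant and recovered cells (-0.84, -0.86 and -0.93) while the brighter one differed by -0.04 and -0.03 in acute and recovered cells, so the probes disagreed. After quantile normalization 3 of the 10 glycosidases were lower in acute and 3 in recovered cells, and in the authors' deposited values 8 and 4, with 0 higher in each case, so a direction for the group depended on the scaling. Of all genes, 33% and 40.7% were called in these comparisons after quantile normalization, and 45.4% and 54.3% in the authors' deposited values.

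The sulfatases Arsb, Galns and Ids were called in no comparison. Of 5 enzymes and activators of lipid breakdown, 1 was called in at least 1 comparison, beside 49.0% of all genes. Ppt1 removes palmitate from proteins, and its loss causes a neuronal storage disease. It was at 10.40, 10.36 and 10.22 in acute, 10.44, 10.45 and 10.42 in tolerant, 10.85, 10.92 and 10.92 in recovered and 10.48, 10.57 and 10.63 in untreated cells. Recovered arrays lay above all others, by 0.57 from acute, 0.46 from tolerant and 0.33 from untreated cells (adjusted p = 0.0389, 0.0185 and 0.0447, limma). Leaving out 1 array ended the first call for 9 of 12 arrays, all but untreated 1, untreated 3 and tolerant 3 (highest adjusted p = 0.136). It ended the second for tolerant 1 and 2 and recovered 2 and 3 (highest adjusted p = 0.0588), and the third for all arrays but acute 3 (highest adjusted p = 0.116).

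Lipa encodes acid lipase, which frees cholesterol and fatty acids from lipoproteins that macrophages take up. It was at 14.04, 13.77 and 14.65 in acute, 13.95, 13.74 and 14.23 in tolerant, 14.15, 14.49 and 14.82 in recovered and 14.11, 14.57 and 15.06 in untreated cells. The groups overlapped and no comparison was called, although within each replicate number the tolerant array was lower than the untreated one and the replicate block called this difference of -0.60 (adjusted p = 0.0168). Smpd1, the acid sphingomyelinase gene, was lower with the replicate block only, by -0.40 in acute and -0.38 in recovered cells against untreated cells. Asah1 and Psap were called in no comparison.

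Other genes around the lysosome were read from lists of enzymes and membrane proteins, sorting, cathepsin inhibitors and autophagy. Of 53 further lysosomal enzymes and membrane proteins tested, 7 were higher and 7 lower in acute, 8 and 7 in tolerant, and 9 and 10 in recovered cells against untreated cells. These are 26.4%, 28.3% and 35.8% of the list, beside 29.2%, 19.9% and 35.3% of all genes. The genes named from these lists are those with the largest changes among the called ones. Sgsh, a heparan sulfatase gene, was at 16.37, 16.32 and 15.96 in acute, 16.37, 16.96 and 17.12 in tolerant, 17.48, 17.01 and 17.58 in recovered and 15.34, 14.83 and 15.18 in untreated cells, with differences from untreated cells of 1.10, 1.70 and 2.24 (adjusted p = 0.00424, 0.000442 and 2.59e-05, limma). Ctns, the cystine exporter gene, was lower in acute, tolerant and recovered cells (differences of -1.60, -0.82 and -1.56). Slc17a5, the sialic acid exporter gene, was lower in tolerant and recovered cells (-1.76 and -1.88). Of 16 sorting genes, 4 were higher and 2 lower in acute, 2 and 0 in tolerant, and 4 and 1 in recovered cells. These are 37.5%, 12.5% and 31.2% of that list, beside 29.2%, 19.9% and 35.3% of all genes. Among the sorting genes Nagpa, which uncovers the mannose 6-phosphate tag, was higher in acute and recovered cells (1.10 and 1.32).

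Among 9 inhibitors of cathepsins, Serpina3g and Cst7 differed most from untreated cells. Serpina3g, a serpin that inhibits lysosomal cysteine proteases, was at 12.79, 12.59 and 12.72 in acute, 11.02, 9.68 and 9.89 in tolerant, 11.95, 11.28 and 11.52 in recovered and 5.96, 6.21 and 6.53 in untreated cells. Cst7, which encodes cystatin F, a cystatin of immune cells that enters the lysosomal pathway, was at 10.94, 10.48 and 10.87 in acute, 11.34, 11.31 and 11.58 in tolerant, 12.29, 11.87 and 12.04 in recovered and 6.12, 5.72 and 6.13 in untreated cells. The differences from untreated cells in acute, tolerant and recovered cells were 6.47, 3.97 and 5.35 for Serpina3g and 4.77, 5.42 and 6.08 for Cst7. Their adjusted p in recovered cells was 2.67e-07 and 1.9e-09 (limma). Serpina3g belongs to a cluster of closely related genes, so its value may include signal from its relatives. Of the 9, 2 were higher and 0 lower in acute, 4 and 2 in tolerant, and 4 and 0 in recovered cells, which is 22.2%, 66.7% and 44.4%, beside 29.2%, 19.9% and 35.3% of all genes.

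Autophagy genes were called lower mostly in acute and recovered cells. Of 30 genes for autophagy and fusion with the lysosome, 1 was higher and 13 lower in acute, 1 and 1 in tolerant, and 3 and 12 in recovered cells against untreated cells. In tolerant against acute cells 9 were higher and 1 lower, and in recovered against tolerant cells 1 was higher and 9 lower. Each of these is 33.3% of the list, beside 22.7% and 20.6% of all genes. The shares called against untreated cells were 46.7%, 6.67% and 50% in acute, tolerant and recovered cells, beside the 29.2%, 19.9% and 35.3% of all genes given above. Vps18, a subunit of the tethering complexes that bring endosomes and autophagosomes to the lysosome, was at 11.27, 11.16 and 11.42 in acute, 12.46, 12.53 and 12.67 in tolerant, 11.26, 11.65 and 11.65 in recovered and 12.84, 12.86 and 13.02 in untreated cells. Its acute and recovered differences from untreated cells were -1.63 and -1.39 (adjusted p = 9.16e-06 and 2.87e-05, limma), and the tolerant one was -0.35 (adjusted p = 0.126, limma). Ulk1, the kinase that starts autophagy, was lower in acute and recovered cells (-1.08 and -1.07, adjusted p = 0.000451 and 0.000427, limma) and differed by -0.19 in tolerant cells (adjusted p = 0.502, limma).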

How the data were processed

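RNA (200 ng) was hybridised to 12 single-colour Agilent arrays, 3 per group. The deposited scanner files hold spot intensity values that Feature Extraction 10.7.3.1 processed, per the file headers, with probe positions on mm9. The authors' deposited matrix holds log2 values, for which the submitters' processing notes name limma without a version. It was used as an alternative only, and each of its 12 columns matched its own array best (r of at least 0.973). Flagged outlier spots (135 to 233 per array) and control spots were left out, log2 processed intensity was centred on the 75th percentile of each array (8.04 to 9.38) with the mean percentile added back, and each gene took the value of its brightest probe. A gene was kept if that probe was flagged well above background on every array of 1 group. The number of arrays limits the precision.

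All 12 arrays were fitted in 1 model with limma 3.58.1 in R 4.3.3 (8 residual degrees of freedom), with 6 two-sided comparisons, Benjamini-Hochberg adjustment over genes and calls at an adjusted p under 0.05. The fit was tested on simulated data. Tables were read with the R package data.table (version 1.17.8), and figures drawn in Python 3.11.15 with matplotlib 3.10.9, numpy 2.4.6 and pandas 2.3.3. Deviations from the group means of same-numbered arrays (18 pairs) correlated at r from 0.276 to 0.774. Those of different numbers had a median of -0.369, which is no separate contrast, because deviations sum to 0 within a group. The design text ties the numbers to 3 independent experiments, and the replicate block takes them to pair the arrays. The main fit had group as its only term and left this pairing out. Replicate 3 of every group lay on 1 slide scanned on a second day, replicate 2 and recovered replicate 1 on another, and replicate 1 of the other groups on the third. Replicate number and slide differ only for recovered replicate 1, so pairing by experiment and a slide effect cannot be told apart. All called members moved the same way on every slide that held both groups. Because these members were called on the same arrays, that is a description and no test of a slide effect. P-values without the block measure the spread between arrays of a group.

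The members and lists were chosen with earlier results of these data known. Named genes were those called with the largest changes (up to 8 in each direction per comparison), a fixed panel of 18 members, and up to 4 called genes per other list and comparison. Gene names came from the files, 2 of them updated through RefSeq accessions (GRCm38.p6, names only). Alternatives were normexp background correction (offset 50), quantile normalization, the authors' values, no filter, the mean of all probes, an intensity trend, replicate and slide blocks, leaving out the second scan day and leaving out each array.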

Additional observations from a re-analysis of the deposited data

How the results depend on the processing

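Counts of called lysosomal genes are given for acute, tolerant and recovered against untreated, tolerant against acute, recovered against tolerant and recovered against acute cells, in that order. The main counts were 8, 9, 15, 7, 12 and 1. With the replicate block (pairing by experiment) they were 16, 17, 25, 14, 22 and 6, and with the slide block 16, 17, 22, 14, 23 and 2. In the authors' values the counts of lysosomal genes were 28, 21, 27, 11, 13 and 3, beside 45.4%, 34.6%, 54.3%, 37.5%, 36.1% and 5.86% of all genes. Recovered against acute cells had 0 calls without the filter on dim probes or without the second scan day, beside 9 genes at an unadjusted p under 0.05 in limma. Those 2 settings called 0.279% and 2.83% of all genes tested. Leaving out each array in turn gave 5 to 8, 6 to 10, 9 to 15, 4 to 7, 4 to 13 and 0 to 1 calls. The shares of all genes called were then 24.5% to 29.3%, 14.2% to 21%, 28.6% to 36.8%, 15.3% to 23.5%, 12.6% to 22% and 0.122% to 2.19%. The replicate block ended none of the main calls and changed calls only by adding to them. Under the authors' values 6 differences that were near 0 and not called turned negative and were called: Atp6v1a (-0.32), Atp6v1f (-0.25), Cd63 (-0.32), Ctsh (-0.29) and Man2b1 (-0.34) in acute and Atp6v0b (-0.29) in recovered against untreated cells. The cause was not tested. The median of all genes in acute cells was 0.02 with percentile scaling and -0.10 after quantile normalization. Calls that held under all 9 alternatives and without each of the 12 arrays were Tfeb, Ctsw and Manba in acute, Ctsk, Atp6v0d2, Ctsh, Ctsc and Atp6v0a2 in tolerant, and Tfeb, Ctsl, Ctsw, Ctsc, Lamp2, Atp6v0a1 and Atp6v0a2 in recovered against untreated cells, Tfeb, Ctsk, Atp6v0d2 and Ctsh in tolerant against acute, and Tfeb, Atp6v0d2 and Ctsw in recovered against tolerant cells. Every other call was lost under at least 1 of them. Signal over background limited 1 kept gene, Ctsg, which was well above background on 10 of 12 arrays.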
